A study of Homo sapiens with 2 samples.

Results

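Pericentromeres are the stretches on both sides of a centromere, the site where the kinetochore attaches a chromosome to the spindle. Human centromeres are built from alpha satellite, a short DNA unit repeated in tandem over megabases, and few genes lie in or beside these arrays. In the human assembly GRCh38 the arrays are filled with modelled sequence, so the order of repeat copies there is not that of a physical chromosome, and a peak marks a kind of repeat copy rather than a fixed place. AIM2 is a sensor of double-stranded DNA that binds it through its HIN domain without a fixed sequence and, through its pyrin domain, recruits the adaptor ASC to start the inflammasome.

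The regions described here are AIM2 immunoprecipitation peaks whose summit lay in 1 of 7 pericentromeric windows of GRCh38. The windows were 87 to 98 Mb of chromosome 2, 89 to 95 Mb of chromosome 3, 57 to 62.5 Mb of chromosome 6, 56 to 64 Mb of chromosome 7, 42.5 to 47.5 Mb of chromosome 8, 49 to 56 Mb of chromosome 11 and 33 to 39 Mb of chromosome 12. Together they held 359 of the 3461 deposited peaks, 225 of 1936 at 0 Gy and 134 of 1525 at 20 Gy. Their members were chosen by position alone.

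Both libraries came from HaCaT, an immortalised and aneuploid human keratinocyte line, grown in the same medium and fixed with 1% formaldehyde for 10 minutes before chromatin was precipitated with an AIM2 antibody. The 0 Gy group was not irradiated. The 20 Gy group received X-rays at 1.15 Gy per minute, and its title adds 4 h without saying from which event. With 1 library in each group there was no replicate spread to set a difference against, so the values compare these libraries and not the conditions, and no test was run. The peak caller kept 8786091 fragments at 0 Gy and 6423989 at 20 Gy, a depth ratio of 0.731. No input library was used, so signal of the antibody and other excess of reads cannot be told apart, and a peak list gives no marker by which the cell line could be checked.

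Window peaks made up a smaller part of the 20 Gy list than of the 0 Gy list. They were 11.7% of the 1929 nuclear peaks at 0 Gy (exact 95% interval 10.3 to 13.2, counting error only) and 8.83% of the 1518 at 20 Gy (7.45 to 10.4). Per 1000000 kept fragments there were 25.6 window peaks at 0 Gy and 20.9 at 20 Gy, a ratio of 0.815 (exact interval 0.653 to 1.01). Nuclear peaks elsewhere had 193.9 and 215 on the same scale, a ratio of 1.11 (1.03 to 1.19). In gene-free intervals elsewhere, stretches of at least 1 Mb without an annotated gene, the ratio was 1.08 (1.00 to 1.17). The 20 Gy caller accepted shorter peaks, down to 170 bp against 177 bp at 0 Gy. With the same 177 bp minimum for both, the windows kept 122 of the 20 Gy peaks and their ratio was 0.742 (0.590 to 0.928), against 1.02 (0.946 to 1.10) elsewhere. That limit removes 20 Gy peaks only. These intervals cover counting error only and treat the lists as independent, although 76 window pairs overlapped. The number of called peaks need not grow in proportion to depth.

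Window counts were lower at 20 Gy in every band of peak strength, where strength is the −log10 q-value that the authors' caller gave each peak. Below a −log10 q-value of 3 the windows had 51 peaks at 0 Gy and 26 at 20 Gy, while the rest of the nuclear genome had 157 and 160. From 3 to 5 the windows had 63 and 44, and elsewhere there were 281 and 285. In the band from 5 to 10, window peaks numbered 63 and 35, and other nuclear peaks 551 and 402. Of peaks at 20 or more, the windows held 20 and 13 and the rest 377 and 281. The depth-scaled count ratio in the windows lay below that elsewhere in each of the 5 strength bands, and within the windows every band's interval held 1.

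By chromosome the windows fell into a well filled set and a nearly empty one. Chromosome 2 led with 61 peaks at 0 Gy (46.7 to 78.4, exact Poisson) and 35 at 20 Gy (24.4 to 48.7). Chromosome 7 followed with 45 and 29, chromosome 11 with 40 and 21, chromosome 3 with 37 and 18, and chromosome 12 with 35 and 25. Scaled by window length, these 5 chromosomes had between 5.54 and 6.17 peaks per Mb at 0 Gy and between 3 and 4.17 at 20 Gy, with overlapping counting intervals. Chromosome 6 had 5 and 4 peaks, or 0.909 and 0.727 per Mb, and chromosome 8 had 2 in each library, or 0.400 per Mb. The depth-scaled count ratio of 20 Gy to 0 Gy was 0.665 on chromosome 3 (0.357 to 1.20), 0.718 on chromosome 11, 0.785 on chromosome 2, 0.881 on chromosome 7 and 0.977 on chromosome 12. It was above 1 in the sparse windows, at 1.09 on chromosome 6 (0.217 to 5.08) and 1.37 on chromosome 8 (0.0991 to 18.9). No single window's interval excluded 1. Of the 11 other chromosomes with at least 20 peaks in gene-free intervals at 0 Gy, 4 had a ratio below 1, and their range was 0.833 to 1.42.

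**Figure D1:**
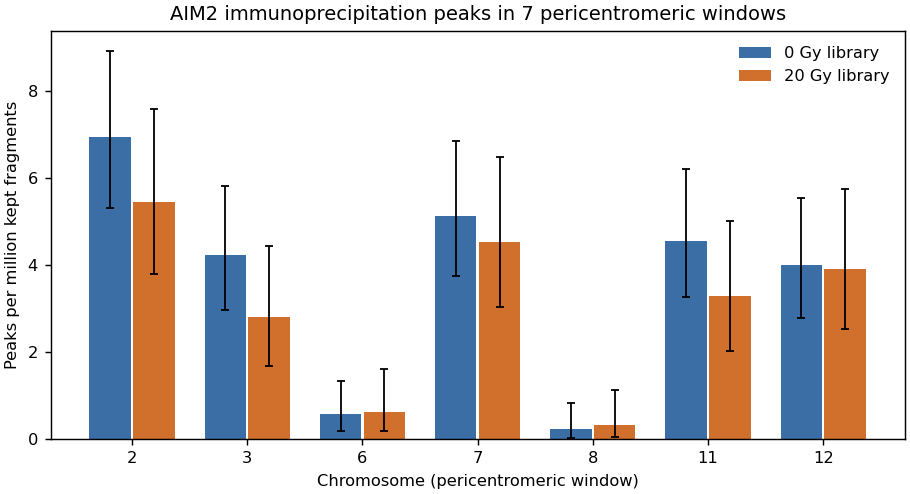
Peaks per 1000000 kept fragments (vertical axis) in the window of each of the 7 chromosomes (horizontal axis), in the 0 Gy and the 20 Gy library, with exact Poisson 95% intervals as bars. Chromosomes 2, 3, 7 and 11 show fewer peaks at 20 Gy, with overlapping intervals, and chromosomes 6 and 8 have at most 5 peaks each.

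The windows held most peaks of their chromosomes, with 1 exception. Of all peaks on the 7 chromosomes, 84.0% lay in the windows at 0 Gy (79.0 to 88.1, 225 of 268) and 75.7% at 20 Gy (68.7 to 81.8, 134 of 177). On chromosome 7 the share was 97.8% at 0 Gy and 85.3% at 20 Gy. Chromosome 8 was the exception, with 2 of 20 peaks in the window at 0 Gy (10.0%) and 2 of 15 at 20 Gy (13.3%). Outside the windows the same 7 chromosomes carried 43 peaks in each library, which at the unequal depths was 4.89 and 6.69 per 1000000 kept fragments, a ratio of 1.37.

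No window peak lay at a protein-coding gene. Of 147 protein-coding genes in the windows, none had a summit within 1000 bp in either library, where 0.220% of all 20037 protein-coding genes had one at 0 Gy and 0.240% at 20 Gy. At those shares fewer than 1 gene of 147 would carry a peak, so the count of 0 is not a result about these genes. No olfactory receptor gene (63 annotated, pseudogenes included), zinc-finger gene (12), ANKRD or POTE gene (13) or TRIM gene (16) of the windows had a peak. Among all 730 annotated genes of the windows 5 had a peak in each library, and they were the same 5, against a background of 0.208% and 0.199% of all annotated genes. They were the immunoglobulin kappa locus IGK, counted as 1 gene, and the chromosome 7 pseudogenes LOC100419985, LOC100533648, LOC100419986 and LOC100533649. Gene-free intervals held 87.1% of the window summits at 0 Gy (196 of 225) and 89.6% at 20 Gy (120 of 134), close to the 84.0% and 81.9% of nuclear peaks elsewhere.

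Window peaks were more widely spaced than nuclear peaks elsewhere. The median distance between neighbouring summits was 36.5 kb at 0 Gy and 60.9 kb at 20 Gy, against 11.7 kb and 14.5 kb between nuclear peaks elsewhere. Only 14.7% and 11.8% of neighbouring window summits were less than 10 kb apart, where elsewhere 44.2% and 39% were. Nuclear peaks elsewhere include crowded chromosomes, with 256, 227, 178 and 227 peaks at 0 Gy on chromosomes 1, 5, 10 and 19. Spacing was not set against that of other sparse pericentromeres. Distances were also set against whole multiples of the alpha-satellite unit length. Within 20 bp of such a multiple lay 22.0% of distances at 0 Gy and 21.3% at 20 Gy, where that tolerance covers 24% of all possible remainders, and elsewhere the shares were 24.4% and 22.9%. In the longest gene-free interval of chromosome 2 the part left of the midpoint held 35 of 50 peaks at 0 Gy and 21 of 28 at 20 Gy. Left of the midpoint lay 22 of 35 and 19 of 25 on chromosome 12, and 26 of 40 and 14 of 21 on chromosome 11. On chromosome 3 it was 17 of 22 and 13 of 14. Chromosome 7 had 20 of 40 to the left at 0 Gy and 9 of 22 at 20 Gy. Chromosome 6 had 1 of 5 and 2 of 4, and chromosome 8 had 2 of 2 in each library. Whether these splits differ from an even one was not tested. The midpoint is that of the gene-free interval and not of an array.

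**Figure D2:**
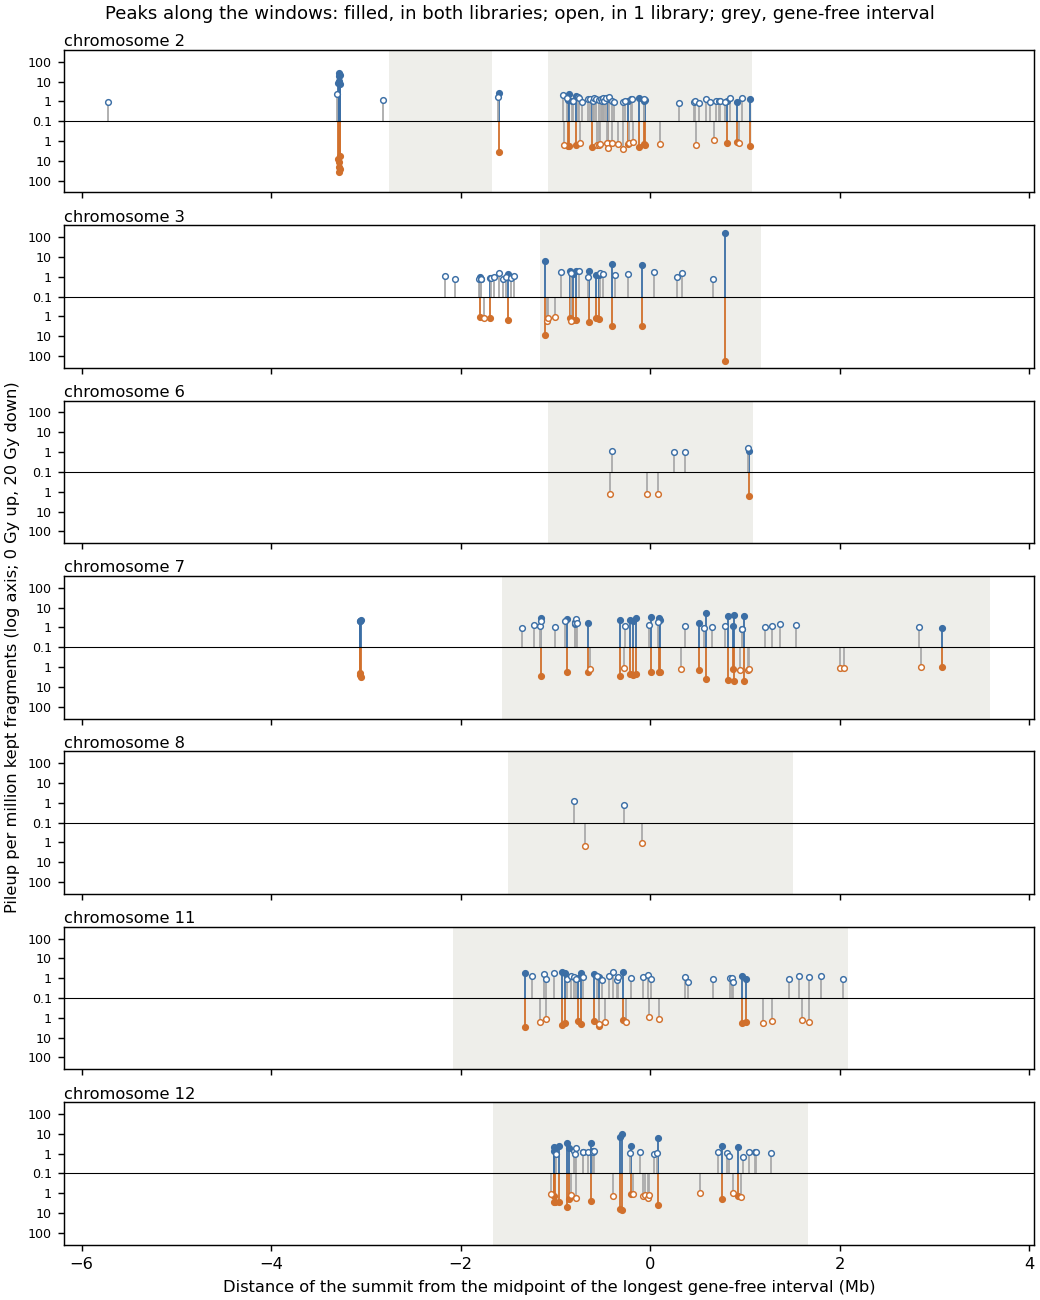
Each peak's summit by its distance in Mb from the midpoint of the longest gene-free interval of its window (horizontal axis) and its pileup per 1000000 kept fragments on a log axis, with 0 Gy drawn upwards and 20 Gy downwards, 1 panel per chromosome. Filled points overlap a peak of the other library, open points do not, and grey marks gene-free intervals. A single tall peak stands out on chromosome 3 and a tight block of tall peaks lies outside the gene-free intervals on chromosome 2.

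Most window peaks were low. Pileup is the number of fragments that cover a summit, as the authors deposited it. Its median over the window peaks was 11 at 0 Gy and 10 at 20 Gy, against 16 and 14 elsewhere. Peaks with a −log10 q-value below 5 made up 50.7% of the window peaks at 0 Gy and 52.2% at 20 Gy, and 25.7% and 32.2% of the nuclear peaks elsewhere. Median fold enrichment over the local background was 5.76 at 0 Gy and 6.17 at 20 Gy in the windows, and 6.90 and 6.85 elsewhere. Weak peaks were not particular to the windows. Outside them on the same 7 chromosomes, 51.2% of peaks at 0 Gy and 67.4% at 20 Gy had a −log10 q-value below 5. Median pileup there was 15 and 9, and median fold enrichment 5.04 and 4.93. Median peak width was 222 bp and 209 bp.

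Chromosome 3 carried the tallest window peak of both libraries. It spanned 93470361 to 93470799 in both, and these identical borders were found for 1 of the 76 window pairs and 5 of the 1047 nuclear pairs. Its pileup at 0 Gy was 1462 (1388 to 1539, exact Poisson), and the 20 Gy pileup was 1147 (1082 to 1215), rank 5 and rank 4 by pileup among all nuclear peaks. Per 1000000 kept fragments this was 166 and 179, a ratio of 1.07 (exact interval 0.992 to 1.16). It alone gave 74.8% of the summed pileup of the chromosome 3 window at 0 Gy and 83.8% at 20 Gy, and it was 26.1 and 21.6 times as high as the next peak there. The nearest annotated genes were LOC101930420, 1956586 bp to the left, and the small nuclear RNA pseudogene RNU6-488P, 372965 bp to the right.

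The other chromosome 3 peaks were far lower, with a median pileup of 11 at 0 Gy and 10 at 20 Gy. Second in height was the pair at 91572679 to 91573079, close to the left end of the longest gene-free interval, with pileups of 56 and 53 and fold enrichments of 18.8 and 20.7. Its depth-scaled ratio was 1.29 (0.872 to 1.92). Next by strength came the pair at 92279060 to 92279362, with pileups of 40 and 20 and a ratio of 0.684 (0.379 to 1.20). A second, weaker block lay to the left, between LOC124909499 and LOC101930420, a gap of 0.948 Mb that fell just under the 1 Mb limit for gene-free intervals. It held 15 of the 37 chromosome 3 peaks at 0 Gy, with pileups from 7 to 13, and 4 of the 18 at 20 Gy, with pileups from 7 to 10. The leading unshared peak at 0 Gy lay in this block, at 91083235 to 91083455, with a pileup of 13 (6.92 to 22.2). At 20 Gy it lay in the main interval, at 91591516 to 91591862, with a pileup of 11 (5.49 to 19.7).

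By pileup, chromosome 2 split into a short block of tall peaks in the IGK locus and a long array of low ones. The IGK locus (88857361 to 90235368) encodes the kappa light chain of antibodies and holds V segments in a copy on either side of a wide gap. Its block of peaks spanned 89811587 to 89840553, a stretch of 28967 bp that no annotated V segment enters. The nearest V segments were IGKV2D-40, 11205 bp to the right, and IGKV2-40, 481158 bp to the left. The block had 7 peaks at 0 Gy, with pileups of 21, 73, 89, 166, 251, 197 and 63 from left to right. All but the first were also called at 20 Gy, with pileups of 54, 70, 132, 235, 159 and 37. The 6 shared peaks had the same order of height in both libraries, with the top at 89833260 to 89833452. Fold enrichment over the local background did not follow this height. At the top peak it was 10.4 at 0 Gy and 11.5 at 20 Gy, rank 365 and rank 230 among nuclear peaks. For the 0 Gy peaks with pileups of 89 and 63 it was 4.72 and 4.61, and for their 20 Gy partners 4.30 and 3.59. It was highest for the peak with a 0 Gy pileup of 73, at 15.8 in both libraries.

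These IGK peaks carried 59.1% of the summed pileup of the chromosome 2 window at 0 Gy and 69.9% at 20 Gy. Paired summits lay a median of 3.5 bp apart and at most 17 bp, against 25 bp over all window pairs and 20 bp over all nuclear pairs. Those pairs were mostly lower. With pileups of at least 20 in both libraries, the median was 12.5 bp over window pairs and 13 bp over nuclear pairs. The depth-scaled ratio of 20 Gy to 0 Gy ran from 0.803 to 1.28, with a median of 1.08. It was highest at the top peak, with a scaled pileup of 28.6 at 0 Gy and 36.6 at 20 Gy (ratio 1.28, 1.07 to 1.54), and 229 of 1047 nuclear pairs had a ratio as high. The pair at 89836284 to 89836821 had a ratio of 1.10 (0.890 to 1.37), and that at 89830932 to 89831136 one of 1.09 (0.859 to 1.38). Both intervals held 1.

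Away from IGK the chromosome 2 peaks were all low. The other 54 peaks at 0 Gy had a median pileup of 10 and a maximum of 24, and the other 29 at 20 Gy had a median of 9 and the same maximum. Both maxima belonged to the pair at 91523259 to 91523481, with a depth-scaled ratio of 1.37 (0.744 to 2.51). Of the array in the longest gene-free interval, between the pseudogene segment IGKV1OR2-2 and BMS1P23, 12 pairs were shared. The tallest unshared peak by −log10 q-value was at 92197196 to 92197578 at 0 Gy, with a pileup of 18 (10.7 to 28.4), and at 92823863 to 92824123 at 20 Gy, with a pileup of 16 (9.15 to 26).

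By count, chromosome 7 had the most shared peaks of the 7 windows, next to 19 on chromosome 2. By share, chromosome 3 was lower at 0 Gy (35.1%) and higher at 20 Gy (72.2%, 46.5 to 90.3). Of 45 peaks at 0 Gy 20 were shared (44.4%, 29.6 to 60.0), and of 29 at 20 Gy 20 were shared (69.0%, 49.2 to 84.7). Its 3 leading pairs lay between 60250502 and 60419047, with lower 0 Gy peaks between them. The pair at 60310733 to 60310997 had pileups of 38 and 32, that at 60250502 to 60250827 had 34 and 29, and that at 60418758 to 60419047 had 33 and 31. These 3 pairs had depth-scaled ratios of 1.15, 1.17 and 1.28, each with an interval that held 1. The tallest peak at 0 Gy, at 60019425 to 60019709, had pileups of 47 and 26 (ratio 0.757, 0.450 to 1.25).

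Every shared chromosome 7 peak had a lower pileup at 20 Gy, the library of lower depth. After scaling, 9 of the 20 pairs were above 1 and 11 below, with a median of 0.976 (binomial interval 0.760 to 1.15). The lowest ratio belonged to the pair at 59441065 to 59441388, with pileups of 29 and 11 (0.519, 0.234 to 1.07), and 6 of 1047 nuclear pairs were as low. This pair was picked after its value was seen. The leading unshared peak at 0 Gy was at 58648600 to 58648873, with a pileup of 23 (14.6 to 34.5), and the nearest 20 Gy peak was 95872 bp away. It had the highest −log10 q-value, 16.2, of all unshared window peaks. The leading unshared 20 Gy peak, at 60462730 to 60462932, had a pileup of 9.

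A separate triplet lay left of the chromosome 7 array, over consecutive pseudogenes. Its 3 peaks, at 56371001 to 56371244, 56372350 to 56372564 and 56373649 to 56373870, had their summits inside LOC100419985, LOC100533648 and LOC100419986, and LOC100533649 lay within 1000 bp of the last. From left to right the 0 Gy pileups were 19, 19 and 22, and those at 20 Gy 13, 17 and 20. The summits were regularly spaced, by 1331 bp and 1336 bp at 0 Gy and by 1297 bp and 1298 bp at 20 Gy. The first 2 of these pseudogenes are both 1114 bp long. All 3 peaks were shared, with depth-scaled ratios of 0.936, 1.22 and 1.24 and intervals that held 1.

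Chromosome 12 carried the tallest peaks of any array here outside chromosomes 2 and 3. The pair at 35614818 to 35615175 had pileups of 83 (66.1 to 103) and 45 (32.8 to 60.2) and fold enrichments of 22.2 and 17.2. The pair at 35597054 to 35597468 had pileups of 58 and 41, and the pair at 35030739 to 35031027 had 29 and 32. Another tall peak, at 35998871 to 35999153, had pileups of 57 and 25.

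The depth-scaled ratios of these chromosome 12 pairs ran from 0.60 to 1.51. Scaled by depth, the pair at 35998871 was 6.49 at 0 Gy and 3.89 at 20 Gy, a ratio of 0.60 (0.359 to 0.976). It was the only window pair whose interval lay below 1, and 23 of 1047 nuclear pairs had a ratio as low. The pair at 35614818 had a ratio of 0.742 (0.504 to 1.08), and that at 35030739 one of 1.51 (0.884 to 2.59). The latter was the highest ratio among the 20 window pairs with a pileup of at least 20 in both libraries. Lowest of all window pairs was that at 35712178 to 35712500, with pileups of 21 and 7 (0.456, 0.164 to 1.11), named after its value was seen. The leading unshared peaks were at 35128778 to 35129028 at 0 Gy, with a pileup of 17, and at 35890636 to 35890826 at 20 Gy, with a pileup of 11.

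Chromosome 11 had many peaks and no tall one. Pileups ran from 6 to 19 at 0 Gy over 40 peaks and from 6 to 18 at 20 Gy over 21 peaks, and all lay in the gene-free interval between LOC646813 and the olfactory receptor pseudogene OR4C50P. Peaks with a −log10 q-value below 5 were 25 of its 40 at 0 Gy and 10 of its 21 at 20 Gy. Only 10 were shared, which was 25% at 0 Gy (12.7 to 41.2) and 47.6% at 20 Gy (25.7 to 70.2). Its leading pairs were at 51578755 to 51579039, with pileups of 19 and 15, at 51186369 to 51186770, with 17 and 18, and at 51606844 to 51607089, with 16 and 12.

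One chromosome 11 pair had the highest depth-scaled ratio of all window pairs, and it was picked after its value was seen. At 51964875 to 51965137 the pileup was 10 at 0 Gy and 17 at 20 Gy, a ratio of 2.33 with an interval of 1.01 to 5.68, and 5 of 1047 nuclear pairs were as high. In the 20 Gy library a second peak followed 766 bp from its summit, with a pileup of 13 and no 0 Gy counterpart. The leading unshared peaks of this chromosome were at 52110059 to 52110310 at 0 Gy, with a pileup of 19, and at 53700272 to 53700594 at 20 Gy, with a pileup of 12.

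Chromosomes 6 and 8 had so few peaks that each can be named. On chromosome 6 the 0 Gy summits were at 58792806, 59454628, 59570569, 60230308 and 60241548, with pileups of 10, 9, 9, 15 and 10. Its 20 Gy summits were at 58774362, 59168280, 59280184 and 60241591, with pileups of 8, 8, 8 and 11. The only shared pair was the last of each list, at 60241518 to 60241718, with a ratio of 1.5 (0.580 to 3.95). On chromosome 8 the 0 Gy summits were at 44243113 and 44769587, with pileups of 11 and 7, and the 20 Gy summits were at 44356619 and 44962225, with pileups of 10 and 7. None of these was shared, and the nearest peak of the other library was at least 113372 bp away.

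A smaller share of window peaks than of all nuclear peaks was found in both libraries. Of the 225 at 0 Gy, 76 overlapped a 20 Gy peak by at least 1 bp (33.8%, 27.6 to 40.4), where 54.3% of all nuclear 0 Gy peaks did. Of the 134 at 20 Gy, 76 overlapped a 0 Gy peak (56.7%, 47.9 to 65.2), where 69.2% of all nuclear 20 Gy peaks did. A low share was not particular to the windows. Outside them on the same 7 chromosomes, 16 of 43 peaks were shared in each library (37.2%). That was close to the window share at 0 Gy and below the window share at 20 Gy. Each window pair joined 1 peak of either list. Unshared window peaks were low, with a median pileup of 10 and a maximum of 23 at 0 Gy and a median of 8 and a maximum of 16 at 20 Gy. Only 3 of the 149 unshared peaks at 0 Gy and 3 of the 58 at 20 Gy lay within 1000 bp of a peak of the other library. Among those 58, 8 fell short of the peak length required at 0 Gy.

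Sharing was complete for the strongest window peaks and below that elsewhere in some of the weaker bands. At a −log10 q-value of 20 or more all 20 window peaks at 0 Gy (100%, 83.2 to 100) and all 13 at 20 Gy were shared, against 97.9% elsewhere in both libraries. From 10 to 20 the shares at 0 Gy were 78.6% in the windows and 76.9% elsewhere. From 5 to 10 they were 27.0% (16.6 to 39.7) and 43.2% (39 to 47.4), and below 3 they were 5.88% (1.23 to 16.2) and 21.0% (14.9 to 28.2). At 20 Gy the shares from 5 to 10 were 77.1% and 72.9%, and from 3 to 5 they were 34.1% (20.5 to 49.9) and 48.8% (42.8 to 54.7). These bands were not tested against each other, and their intervals cover counting error only.

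**Figure D3:**
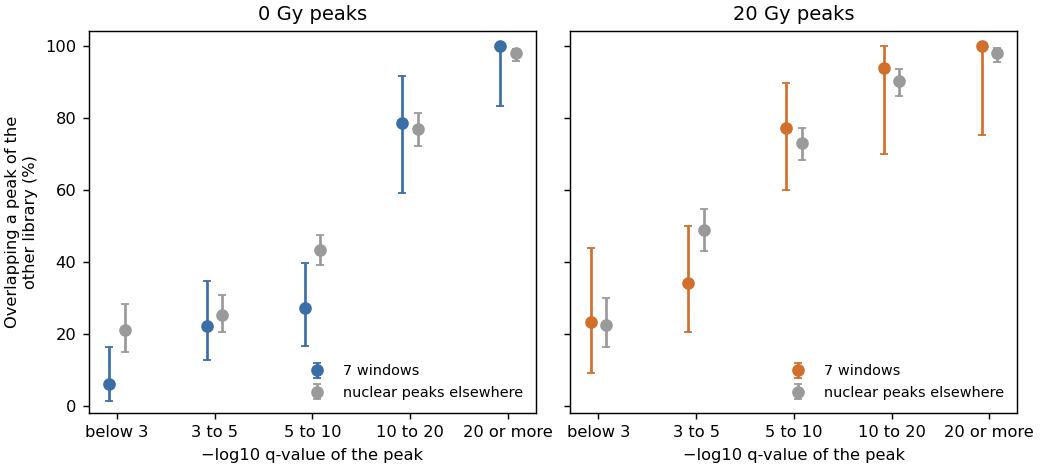
Share of peaks that overlap a peak of the other library by at least 1 bp (vertical axis, %) by the −log10 q-value of the peak (horizontal axis), for 0 Gy peaks on the left and 20 Gy peaks on the right, with exact 95% intervals as bars. Coloured points are the 7 windows and grey points the nuclear peaks elsewhere. Peaks of 20 or more were shared in all cases in the windows, and 0 Gy window peaks from 5 to 10 were shared at 27.0% against 43.2% elsewhere.

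Shared window peaks had nearly the same height per kept fragment in both libraries. The median depth-scaled ratio of 20 Gy to 0 Gy over the 76 pairs was 1.08 (binomial interval 0.995 to 1.15), against 1.06 (1.04 to 1.08) over all 1047 nuclear pairs. Ratios ran from 0.456 to 2.33, and 46 pairs were above 1 and 30 below. At least 1.5-fold higher at 20 Gy were 6 pairs (7.89%, 2.95 to 16.4), where 10.8% of all nuclear pairs were. At least 1.5-fold lower were also 6 pairs (7.89%, 2.95 to 16.4), where 5.64% of all nuclear pairs were. Both intervals held their background. The even split depended on the scaling: with the median nuclear ratio set to 1, 3.95% of window pairs were at least 1.5-fold higher and 11.8% lower, and by fold enrichment 1.32% were higher and 10.5% lower. Matching shares over all nuclear pairs are not given for these alternatives, so no excess in the windows can be read from them. Counting intervals excluded 1 for 3 of the 76 pairs, 2 above and 1 below. Over all 1047 nuclear pairs 18 intervals lay above 1 and 11 below, so the window count is not a result about these pairs. By chromosome the median ratio was 1.22 on chromosome 2 (1.01 to 1.37), 1.24 on chromosome 11 (0.879 to 1.88), 1.06 on chromosome 3 (0.805 to 1.14), 0.976 on chromosome 7 and 0.967 on chromosome 12 (0.684 to 1.30). On chromosome 2, 6 of the 19 pairs had equal pileups in both libraries, which after depth scaling gives a ratio of 1.37. Its 12 pairs in gene-free intervals had a median pileup of only 10 in either library. By fold enrichment the chromosome 2 median was 1.05 (0.910 to 1.16).

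A pair exists only where both libraries passed the caller's limit, so ratios are also given by the strength of the 0 Gy peak. Pairs with a −log10 q-value at 0 Gy from 3 to 5 had a median ratio of 1.28 in the windows (14 pairs) and 1.26 elsewhere (71 pairs). From 10 to 20 it was 0.805 in the windows (22 pairs, 0.746 to 1.11) and 0.980 elsewhere (260 pairs, 0.940 to 1.03). At 20 or more it was 1.04 (20 pairs, 0.755 to 1.15) and 0.988 (369 pairs, 0.971 to 1.02). Measured by fold enrichment in place of scaled pileup, the direction of the median turned, to 0.925 (0.861 to 1.02) in the windows and 0.954 (0.942 to 0.969) over all nuclear pairs.

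**Figure D4:**
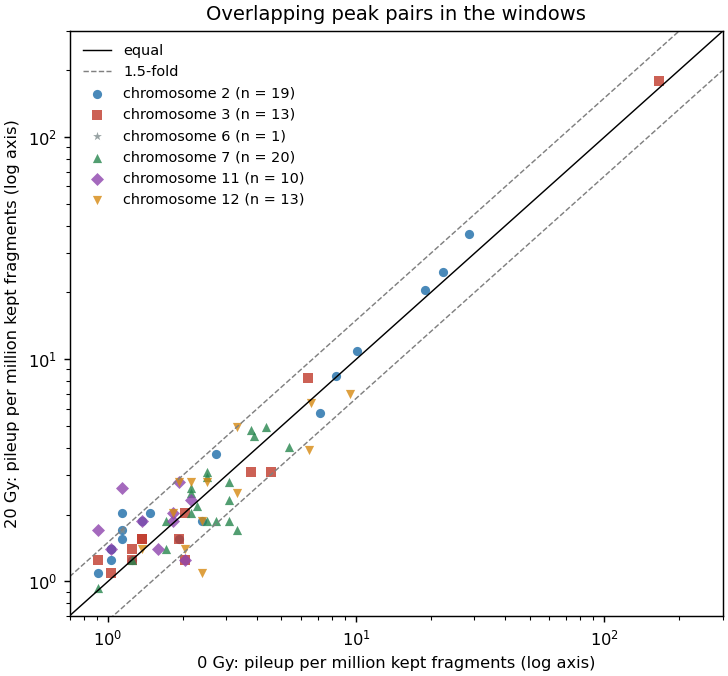
Pileup per 1000000 kept fragments at 0 Gy (horizontal log axis) and 20 Gy (vertical log axis) for the 76 overlapping peak pairs, marked by chromosome, with the line of equality and dashed lines at 1.5-fold. The chromosome 3 peak at 166 and 179 and the IGK peaks up to 28.6 and 36.6 lie near equality, and 6 pairs lie past 1.5-fold in each direction.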

How the data were processed

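The data are AIM2 immunoprecipitation peaks of HaCaT cells, 1 library without and 1 with irradiation. Per the submitters' processing notes, the tools were BWA 0.7.15-r1140, Trimmomatic 0.36 and MACS2 2.1.2 among others, and the build was GRCh38.p13. Per the file headers, the authors called narrow peaks for each library alone, in paired-end mode, with a q-value limit of 0.05, at most 1 fragment per position, a local background of up to 10000 bp and no control. The recorded name of the input speaks of unique, duplicate-removed alignments, per the file headers; how reads matching several repeat copies were placed is not given in the sources used here. Deposited pileup is coverage signal, and the file headers name no scaling between the libraries. Deposited p-values and q-values are −log10 values, and the deposited fold enrichment is a ratio to the local background of the same library.

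Pileups were divided by kept fragments and multiplied by 1000000. Each 0 Gy peak was paired with the 20 Gy peak of largest overlap, at least 1 bp. Shares carry Clopper-Pearson, counts Poisson, medians order-statistic and ratios conditional binomial intervals at 95%. They cover counting error only, since amplified fragments are not independent molecules. Genes came from a RefSeq table of GRCh38.p14. Without a genome sequence, no sequence was printed and base composition, motifs and repeats were not analysed here.

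Named were, per window, the 3 shared pairs of highest lower −log10 q-value, the leading unshared peak of each list, every peak where a list held 10 or fewer, the 3 highest and 3 lowest ratios among pairs with pileups of at least 20, and each annotated gene with a peak. The windows, lists and rules were chosen with earlier results of these data known. Overlap and ratio steps were tested on simulated data. Alternatives covered q-value limits, peak length, overlap, merging, window limits, scaling and fold. Computation used Python 3.11.15, pandas 2.3.3, numpy 2.4.6 and scipy 1.17.1.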

Additional observations from a re-analysis of the deposited data

How the results depend on the processing

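Over the 9 summary values, 78 recomputed values stayed close to the reported one (inside its interval, or for counts within 1.5 times) and 9 did not. Restricting to −log10 q-values from 5 upwards, which leaves fewer peaks by construction, left 111 and 64 window peaks, of which 45.0% at 0 Gy and 78.1% at 20 Gy were shared, and 82.1% of the 7 chromosomes' 20 Gy peaks lay in the windows. Fold enrichment in place of scaled pileup gave a median ratio of 0.925 and put 1.32% of pairs at least 1.5-fold higher and 10.5% lower; the cause was not tested. A 2-fold limit, stricter by construction, gave 1.32% in each direction. Scaled to a median nuclear ratio of 1, 3.95% of pairs were 1.5-fold higher and 11.8% lower, and scaled by all fragments 3.95% and 7.89%, so the split between directions depends on the scaling. For none of these alternative shares of pairs is the matching share over all nuclear pairs given. Leaving out each chromosome in turn, the median ratio lay between 1.03 and 1.11. Leaving out the IGK locus, chosen after seeing the data, gave 1.09. For single chromosomes 230 values stayed close and 25 moved, all from a q-value limit or from the lone pair of chromosome 6. All 54 recomputed ratios of named pairs stayed within their interval. Those ratios were recomputed only under the alternative scalings and by fold enrichment. Each scaling multiplies every ratio by the same constant and most of the intervals are wide, so staying inside says little about how steady the ratios are. The lowest called pileup in the windows was 6 in both libraries, and elsewhere 6 at 0 Gy and 5 at 20 Gy; sites that missed the authors' q-value limit are not listed. No paired analysis was possible because there was only 1 library for either dose.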
